A study of Mus musculus with 8 samples.

Results

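Genes known for their roles in the intermediate mesoderm and the developing kidney were followed in mouse embryos mutant or wild type for Gcnf. The 8 genes, Osr1, Lhx1, Wt1, Gata3, Sall1, Cited1, Wnt9b and Emx2, were taken by name from a table of 55421 Ensembl gene identifiers. All 8 were found by symbol and all 8 passed the filter on low values. Poly-A RNA was sequenced from embryos at E9.25, with 9 to 11 somites, in 8 libraries of 4 groups. The groups were homozygous mutant (Gcnf-/-) anterior pieces, mutant posterior pieces, wild-type anterior pieces and wild-type posterior pieces, with 2 libraries in each. Anterior pieces held the first pharyngeal arch and what lies in front of it, and posterior pieces held everything from the second arch back. Mutant libraries were numbered 159 and 163 and wild-type libraries 153 and 156 in both regions. Neither the strain nor the nature of the mutant allele is stated in the labels. Whether a pair of libraries of 1 group represents separate embryos is not stated either, and the p-values reflect the spread among these libraries alone. The mutant libraries 159 and 163 differed in sex-linked RNA (Xist) and so did not come from the same embryo, whereas the spread of the wild-type pair may be technical.

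The intermediate mesoderm is a strip between the somites and the lateral plate, from which the nephric duct, the successive kidneys and part of the gonads arise. Osr1, Lhx1, Pax2 and Pax8 are among its earliest regulators. Gata3, Emx2 and Wnt9b act in the nephric duct that grows out of it, and Wt1, Sall1 and Cited1 mark the mesenchyme that later forms nephrons. At this stage the definitive kidney has not formed. These genes also work elsewhere in the embryo: Emx2 in the cerebral cortex, Lhx1 in neurons, Wnt9b in the ectoderm of the face, Gata3 in the ear and skin, Osr1 in the lateral plate, Wt1 in the coelomic lining and Sall1 in the limbs and brain. Gcnf, encoded by Nr6a1, is an orphan nuclear receptor known as a repressor of transcription. In whole pieces of tissue, fewer cells of a type and less RNA per cell cannot be told apart, and neither can the tissues a gene's RNA came from.

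Levels are in TPM, a measure of transcript share that corrects for gene length and scales each library to a total of 1000000. The values corresponded to between 27064114 and 52957994 reads in genes per library. Behind the values of the 8 genes lay between 11 reads, for Wt1 in a wild-type anterior library, and 11060 reads, for Sall1 in a wild-type posterior library. The level given by 3 reads lay between 0.0322 and 0.23 TPM for these genes, and such limits cover counting error only. Differences are of log2(TPM + 1) with their standard error, a scale that understates the change of low genes. Tests are limma's, with Benjamini-Hochberg adjustment over 16699 genes and a threshold of 0.05.

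The region labels fitted the marker genes: 7 anterior markers summed to between 4.11 and 5.97 TPM in the posterior pieces and between 193 and 337 TPM in the anterior pieces, and 12 posterior markers to between 663 and 1078 TPM and between 9.17 and 13.7 TPM. Nr6a1 had 240 and 202 TPM in mutant anterior libraries, against 194 and 205 TPM in the wild type, and 158 and 116 TPM in mutant posterior libraries, against 157 and 165 TPM in the wild type, so its level does not check the genotype labels. Library 159 had Xist in both mutant groups (25.3 and 30.9 TPM), whereas library 163 (0.0749 and 0.0383 TPM) and the wild-type libraries (0.0119 to 0.0476 TPM) had almost none, so sex was unequal between the genotypes. Markers of primitive red cells summed to between 22075 and 43850 TPM in the mutant and between 4218 and 9872 TPM in the wild type. Markers of visceral endoderm and yolk sac set wild-type anterior library 153 (156 TPM) apart from library 156 (24.3 TPM) and from the mutant anterior libraries (18.2 and 26.3 TPM). In the posterior pieces they summed to 241 and 1147 TPM in the mutant, against 2570 and 2145 TPM in the wild type. The part of these tissues and of sex in the results was not tested.

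**Figure D1:**
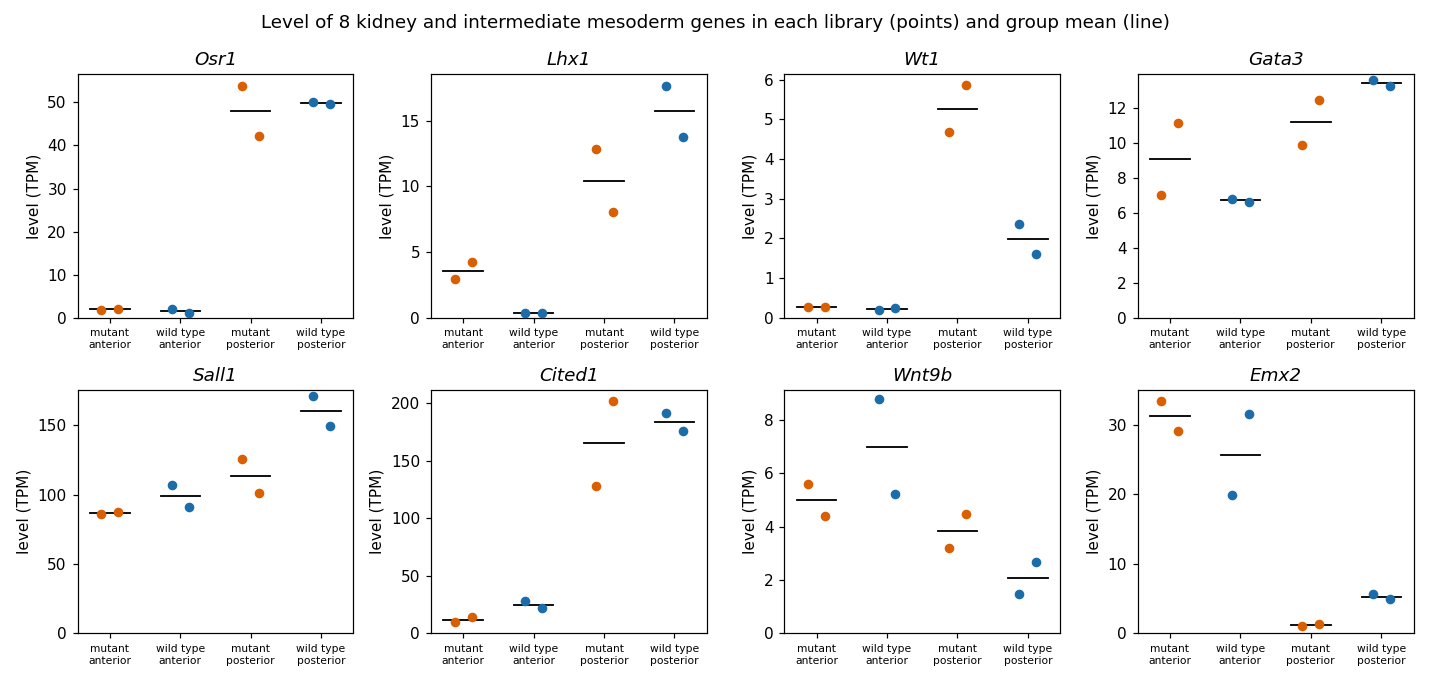
Level of each of the 8 genes in TPM (linear axes from 0) in the 2 libraries of each group (points) with the group mean (line), mutant groups in orange and wild-type groups in blue. Osr1, Cited1 and Wt1 were high in posterior pieces and Emx2 in anterior pieces. Lhx1 stood at 2.91 and 4.21 TPM in mutant anterior pieces against 0.340 and 0.384 TPM in wild type, and Emx2 at 0.975 and 1.33 TPM in mutant posterior pieces against 5.64 and 4.88 TPM in wild type.

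The anterior comparison asked which of the 8 genes differed with genotype in the head pieces. Lhx1 was higher and Cited1 lower in the mutant, and the other 6 did not pass the test. These calls of 1 higher and 1 lower stand beside 13.3% of all genes called higher and 10.2% called lower, 23.6% in all, so the share called was near the background. The mutant and wild-type libraries did not overlap for 3 genes that were higher (Lhx1, Wt1 and Gata3) and 2 that were lower (Sall1 and Cited1), where 67.3% of all genes had no overlap (35.1% higher and 32.3% lower). The median difference of the 8 genes was 0.12, beside 0.02 over all genes.

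Lhx1 encodes a LIM homeodomain factor that the intermediate mesoderm needs to form the nephric duct, and that also works in gastrulation and in neurons. It had 2.91 and 4.21 TPM in mutant anterior libraries 159 and 163, against 0.340 and 0.384 TPM in wild-type libraries 153 and 156. Both mutant libraries were far above both wild-type libraries, where the value rested on 13 and 15 reads. The mean was 3.56 ± 0.916 TPM in the mutant and 0.362 ± 0.0312 TPM in the wild type (SD, n = 2 each), 9.83-fold higher in the mutant. The difference was 1.73 ± 0.23 (limma adjusted p = 0.0016), and it passed in 19 of 19 alternatives, with adjusted p between 0.00042 and 0.044. Lhx1os, a non-coding gene on the opposite strand that shares no exon bases with Lhx1, had 3.03 and 1.28 TPM in the mutant, against 0.305 and 0.299 TPM in the wild type.

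Early neuron markers were also higher in the mutant anterior libraries. Of 13 genes, 10 rose and 1 fell, where 13.3% of all genes rose and 10.2% fell. Their levels summed to 498 and 701 TPM in the mutant and to 212 and 224 TPM in the wild type, and none was at 0. Elavl3, an RNA-binding protein of neurons, had 13.9 and 18.4 TPM in the mutant, against 1.22 and 1.8 TPM in the wild type (2.77 ± 0.21, limma adjusted p = 0.00012). Lhx5, a close relative of Lhx1, was the one that fell, with 28.7 and 36.5 TPM in the mutant, against 46.5 and 54.6 TPM in the wild type (-0.62 ± 0.16, limma adjusted p = 0.022). In the posterior pieces, where Lhx1 did not pass, 9 of these 13 genes rose and 0 fell, where 8.56% of all genes rose and 2.93% fell. Their levels there summed to 144 TPM in each mutant library, against 63.9 and 66.0 TPM in the wild type. Lhx5 was among those that rose there (0.75 ± 0.16, limma adjusted p = 0.019). The part of neurons in the rise of Lhx1 was not tested.

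The upstream sequence of Lhx1 is shown because this gene had the larger of the anterior changes and because Gcnf is a DNA-binding factor. Gcnf is known to bind the nuclear receptor motif AGGTCA in direct repeats and in the extended form TCAAGGTCA. Neither motif occurred on either strand of the RefSeq window of 300 bases, 250 before to 50 after the start of Lhx1, so no base is in capitals. The stretch printed is GRCm38.p6 chr11:84525536-84525784, minus strand, 249 bases.
Lhx1: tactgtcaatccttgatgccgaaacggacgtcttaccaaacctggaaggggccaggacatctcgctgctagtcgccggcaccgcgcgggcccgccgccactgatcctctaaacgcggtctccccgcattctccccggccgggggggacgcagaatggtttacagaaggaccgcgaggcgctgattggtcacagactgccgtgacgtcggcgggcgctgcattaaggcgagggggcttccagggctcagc

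Cited1 encodes a transcriptional co-activator that later marks nephron progenitors. It had 9.69 and 14.1 TPM in the mutant anterior libraries, against 27.8 and 21.5 TPM in the wild type. Both mutant libraries were below both wild-type libraries. The mean was 11.9 ± 3.13 TPM in the mutant and 24.7 ± 4.41 TPM in the wild type (SD, n = 2 each), 2.07-fold lower in the mutant, with a difference of -1.0 ± 0.23 (limma adjusted p = 0.016). Without mutant anterior library 159 the difference was -0.75 (adjusted p = 0.09) and without wild-type anterior library 153 it was -0.83 (adjusted p = 0.094), so the call rested on each of them. Cited1 lies on the X chromosome, and library 159, the one with Xist, had the lower of the mutant values in both regions.

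A RefSeq start of Cited1 had the only window with AGGTCA among 10 windows from 6 of the 8 genes, where 16.3% of 32851 promoter windows of the same length held it on either strand. The form TCAAGGTCA, which contains AGGTCA, was in 0 of these 10 windows and in 0.423% of all windows. A match describes the letters only. The stretch that holds it, the part of the window outside annotated exons, is GRCm38.p6 chrX:102250947-102251026, minus strand, 80 bases, and the capitals mark the motif as it reads on the other strand.
Cited1: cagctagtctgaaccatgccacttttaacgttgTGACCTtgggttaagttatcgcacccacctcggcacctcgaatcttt

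The duct genes Gata3, Emx2 and Wnt9b did not pass in the anterior pieces. Gata3, a zinc finger factor, had 7.03 and 11.2 TPM in the mutant, against 6.83 and 6.66 TPM in the wild type (0.35 ± 0.20, limma adjusted p = 0.23). Without mutant anterior library 159 the difference was 0.65 and passed (adjusted p = 0.038). Emx2 had 33.4 and 29.1 TPM in the mutant, against 19.9 and 31.5 TPM in the wild type, with overlapping libraries (0.31 ± 0.21, limma adjusted p = 0.32). Wnt9b, a secreted Wnt ligand, had 5.59 and 4.42 TPM in the mutant, against 8.78 and 5.22 TPM in the wild type, also overlapping (-0.38 ± 0.27, limma adjusted p = 0.34). Gata3 shares 155 exon bases with the antisense gene Gm13256 and 77 with 9230102O04Rik, which lies on the same strand. Reads on bases shared with Gm13256 cannot be told apart in unstranded libraries, nor those shared with 9230102O04Rik in any library. The levels of these neighbours were at most 0.387 and 0.152 TPM.

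Osr1 and Wt1 were low in the anterior pieces and Sall1 abundant. Osr1, a zinc finger factor among the first markers of the intermediate mesoderm, had 1.70 and 2.12 TPM in the mutant, against 2.12 and 1.11 TPM in the wild type (0.18 ± 0.20, limma adjusted p = 0.56). Wt1, the zinc finger factor of the Wilms tumour gene, had 0.260 and 0.271 TPM in the mutant, against 0.189 and 0.236 TPM in the wild type (0.06 ± 0.20, limma adjusted p = 0.86). Sall1, a zinc finger factor of the kidney mesenchyme, had 86.0 and 87.8 TPM in the mutant, against 107 and 91.0 TPM in the wild type (-0.18 ± 0.13, limma adjusted p = 0.35). None of these differences exceeded its error by enough to pass.

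The posterior comparison asked this of the pieces from the second arch back, which include the trunk, where the intermediate mesoderm lies. Emx2 and Sall1 were lower and Wt1 was higher in the mutant, while Osr1, Lhx1, Gata3, Cited1 and Wnt9b did not pass. The 1 higher and 2 lower calls stand beside 8.56% of all genes called higher and 2.93% called lower, 11.5% in all. Of all genes called, 74.5% were higher in the mutant, but 54.3% under median-of-ratios scaling and 53.9% under quantile normalization. The libraries did not overlap for 2 genes that were higher (Wt1 and Wnt9b) and 4 that were lower (Lhx1, Gata3, Sall1 and Emx2), where 53.2% of all genes had no overlap (33.4% higher and 19.8% lower). The median difference of the 8 genes was -0.22, beside 0.05 over all genes.

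Emx2, a homeodomain factor needed for the ureteric bud and the gonads to develop, had 0.975 and 1.33 TPM in the mutant posterior libraries, against 5.64 and 4.88 TPM in the wild type. Both mutant libraries, with 44 and 35 reads, were far below both wild-type libraries, with 126 and 206 reads. The mean was 1.15 ± 0.254 TPM in the mutant and 5.26 ± 0.538 TPM in the wild type (SD, n = 2 each), 4.56-fold lower in the mutant, with a difference of -1.54 ± 0.21 (limma adjusted p = 0.0029). The call passed in 18 of 19 alternatives and missed the threshold when library 153 of the wild-type posterior group was left out (-1.45, adjusted p = 0.052). Emx2os, an antisense gene that shares 264 exon bases with Emx2, had 0.212 and 0.205 TPM in the mutant, against 0.455 and 0.340 TPM in the wild type, and reads on the shared bases cannot be told apart in unstranded libraries.

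Since Emx2 is also a forebrain gene, forebrain markers were read beside it in the posterior pieces. Of 11 such genes, 2 fell, Otx1 among them, and 1 rose (Lhx2), where 2.93% of all genes fell and 8.56% rose. Their levels summed to 56.2 and 57.0 TPM in the mutant and 47.0 and 55.1 TPM in the wild type. Otx1, a homeodomain factor of the forebrain and midbrain, had 0.356 and 0.253 TPM in the mutant, against 1.17 and 1.09 TPM in the wild type (-0.71 ± 0.13, limma adjusted p = 0.013). Six3, of the anterior forebrain and eye field, was near 0, with 0.0733 and 0.0420 TPM in the mutant, against 0.0987 and 0.170 TPM in the wild type. Barhl2 and Rax were at 0 in wild-type library 153. The part of such tissue in the fall of Emx2 was not tested.

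Wt1 had 4.67 and 5.86 TPM in the mutant posterior libraries, against 2.37 and 1.62 TPM in the wild type. Both mutant libraries were above both wild-type libraries. The mean was 5.26 ± 0.838 TPM in the mutant and 1.99 ± 0.528 TPM in the wild type (SD, n = 2 each), 2.64-fold higher in the mutant, with a difference of 1.07 ± 0.20 (limma adjusted p = 0.012). The call was lost without mutant posterior library 163 (0.93, adjusted p = 0.059) or wild-type posterior library 156 (0.89, adjusted p = 0.082).

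Wt1 also marks the lining of the body cavity, so other genes of the coelomic lining, gonad ridge and epicardium were counted beside it. Of 12 tested genes in a list of 14, 2 rose (Upk3b and Gata6) and 1 fell (Cbx2) in the mutant posterior pieces, with a median difference of 0.32 beside 0.05 over all genes, of which 8.56% rose and 2.93% fell. Their levels summed to 1311 and 1309.7 TPM in the mutant, against 1099.6 and 1093 TPM in the wild type. Upk3b, a uroplakin of mesothelium, had 29.8 and 42.1 TPM in the mutant, against 16.5 and 15.6 TPM in the wild type (1.10 ± 0.17, limma adjusted p = 0.0056), and passed in 16 of 19 alternatives. Gata6, a zinc finger factor of heart and gut, had 53.5 and 55.5 TPM in the mutant, against 28.2 and 30.3 TPM in the wild type (0.87 ± 0.22, limma adjusted p = 0.036), and passed in 8 of 19. The retinoic acid enzyme gene Aldh1a2 had 525 and 467 TPM in the mutant, against 266 and 282 TPM in the wild type, and missed the threshold (0.85 ± 0.24, limma adjusted p = 0.053). In the anterior pieces 3 genes of this list were higher (Lhx9, Upk3b and Bnc1) and 2 lower (Aldh1a2 and Cbx2), where 13.3% of all genes were higher and 10.2% lower. Lhx9, with 2.06 and 2.25 TPM in the mutant anterior libraries, against 0.348 and 0.550 TPM in the wild type, passed the filter on low values only through the mutant anterior libraries.

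Lateral plate and septum transversum genes were read beside Wt1 as well. Of 10 genes, 5 rose and 0 fell in the mutant posterior pieces (limma, with 6 higher and 0 lower at an unadjusted p under 0.05), where 8.56% of all genes rose and 2.93% fell. Their levels summed to 527 and 585 TPM in the mutant, against 389 and 368 TPM in the wild type, and none was at 0. Tbx4, a T-box factor of the hindlimb and allantois, had 55.4 and 66.3 TPM in the mutant, against 9.01 and 8.11 TPM in the wild type (2.69 ± 0.16, limma adjusted p = 7.2e-05). In the anterior pieces, where Wt1 did not pass, 4 of these 10 genes rose and 0 fell, where 13.3% of all genes rose and 10.2% fell. Their levels there summed to 117 and 120 TPM in the mutant, against 76.1 and 76.0 TPM in the wild type. The part of such tissue in the rise of Wt1 was not tested.

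Sall1 had 126 and 101 TPM in the mutant posterior libraries, against 171 and 149 TPM in the wild type. Both mutant libraries were below both wild-type libraries. The mean was 113 ± 17.1 TPM in the mutant and 160.4 ± 15.5 TPM in the wild type (SD, n = 2 each), 1.41-fold lower in the mutant, and the difference of -0.50 ± 0.13 was just past the threshold (limma adjusted p = 0.043). It passed in 7 of 19 alternatives. It was lost without mutant anterior 159 or 163 (adjusted p = 0.059 for each), mutant posterior 163 (-0.35, adjusted p = 0.15), wild-type anterior 153 or 156 (adjusted p = 0.054 for each), or wild-type posterior 153 (-0.40, adjusted p = 0.23) or 156 (-0.60, adjusted p = 0.087).

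Osr1 had the smallest difference of the 8 genes in the posterior pieces, with 53.9 and 42.2 TPM in the mutant, against 50.2 and 49.7 TPM in the wild type. The wild-type values lay between the mutant values, and the difference was -0.06 ± 0.20 (limma adjusted p = 0.87). Cited1 had 128 and 202 TPM in the mutant, against 191 and 176 TPM in the wild type, with overlapping libraries (-0.19 ± 0.23, limma adjusted p = 0.65). Its mutant libraries were the farthest apart of any group of this gene.

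Lhx1, Gata3 and Wnt9b had groups that did not overlap in the posterior pieces but missed the threshold. Lhx1 had 12.9 and 8.01 TPM in the mutant, against 17.7 and 13.7 TPM in the wild type (-0.57 ± 0.23, limma adjusted p = 0.15). Wnt9b had 3.20 and 4.48 TPM in the mutant, against 1.46 and 2.68 TPM in the wild type (0.67 ± 0.27, limma adjusted p = 0.15). Gata3 had 9.92 and 12.5 TPM in the mutant, against 13.6 and 13.3 TPM in the wild type (-0.25 ± 0.20, limma adjusted p = 0.45). Surface and oral ectoderm markers were read because Wnt9b and Gata3 are also ectoderm genes. Of 12 such markers, 1 rose and 0 fell in these pieces, where 8.56% of all genes rose and 2.93% fell. At an unadjusted limma p under 0.05, 4 were higher and 0 lower. The 12 markers summed to 1065 and 1369.6 TPM in the mutant, against 1254 and 1234 TPM in the wild type.

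**Figure D2:**
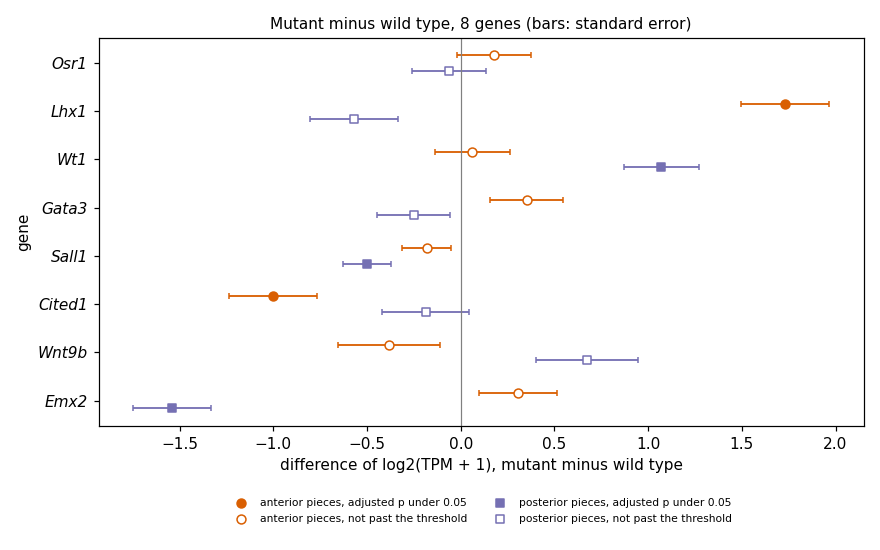
Difference of log2(TPM + 1), mutant minus wild type, for each of the 8 genes in anterior pieces (orange circles) and posterior pieces (purple squares), with bars of 1 standard error and filled symbols where the adjusted p was under 0.05. Lhx1 lay at 1.73 in anterior pieces and -0.57 in posterior pieces, and Emx2 at 0.31 and -1.54.

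Whether the genotype effect differed between the regions was tested for each gene as the anterior effect minus the posterior effect. Lhx1 and Emx2 passed, both higher, and the other 6 did not, where 1.01% of all genes passed, 0.413% higher and 0.599% lower. For Lhx1 the effects of 1.73 in the anterior and -0.57 in the posterior pieces differed by 2.30 ± 0.33 (limma adjusted p = 0.02). For Emx2 the effects of 0.31 and -1.54 differed by 1.85 ± 0.29 (limma adjusted p = 0.028). These calls passed in 12 and 9 of 19 alternatives. With the library number as a replicate block, neither passed. Lhx1 lost its call without library 163 of the mutant anterior group (2.09, adjusted p = 0.059) or library 153 of the wild-type anterior group (2.28, adjusted p = 0.051). It also did so without library 153 (2.13, adjusted p = 0.13) or 156 (2.47, adjusted p = 0.097) of the wild-type posterior group. Emx2 lost its call without library 159 (1.75, adjusted p = 0.091) or 163 (1.94, adjusted p = 0.062) of the mutant anterior group or library 153 of the wild-type anterior group (1.53, adjusted p = 0.051). It also did so without library 153 (1.76, adjusted p = 0.17) or 156 (1.93, adjusted p = 0.14) of the wild-type posterior group.

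The other 6 differences of effects had adjusted p between 0.17 for Wt1 and 0.78 for Osr1. For Wt1 the effects were 0.06 in the anterior and 1.07 in the posterior pieces, a difference of -1.01 ± 0.28. For Wnt9b they were -0.38 and 0.67, a difference of -1.06 ± 0.39 (limma adjusted p = 0.29). For Cited1 they were -1.0 and -0.19, a difference of -0.81 ± 0.33 (limma adjusted p = 0.35). For Sall1 they were -0.18 and -0.50, a difference of 0.32 ± 0.18 (limma adjusted p = 0.53). The effects of Wt1, Cited1 and Sall1, each called in 1 region, are thus not shown to differ between the regions.

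The region effect, posterior minus anterior, was measured in each genotype. In the mutant Osr1, Cited1, Wt1 and Lhx1 were higher and Emx2 lower in the posterior pieces, while Gata3, Sall1 and Wnt9b did not pass. In the wild type all 8 passed, with 6 higher and 2 lower, Emx2 and Wnt9b being the lower ones. The background was 16.1% of all genes for the mutant (8.01% higher and 8.1% lower) and 14.5% for the wild type (7.86% higher and 6.65% lower). Gata3 lost its wild-type call when any single wild-type library was left out, and a smaller share of all genes passed each time. Sall1 lost it without wild-type anterior library 156 or posterior library 153. Wnt9b lost it without library 153 of either wild-type group. The wild-type calls of Gata3, Sall1 and Wnt9b passed in 14, 17 and 16 of 20 alternatives.

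Osr1, Cited1 and Wt1, like Lhx1, were higher in posterior than in anterior pieces in both genotypes. Osr1 was 25.2-fold higher in posterior than in anterior pieces in the mutant (4.07 ± 0.20, limma adjusted p = 2.4e-06) and 30.9-fold higher in the wild type (4.31 ± 0.20, limma adjusted p = 1.9e-06). Cited1 was 13.9-fold higher in the mutant (3.67 ± 0.23) and 7.45-fold higher in the wild type (2.86 ± 0.23). Wt1 was 19.8-fold higher in the mutant (2.30 ± 0.20) and 9.37-fold higher in the wild type (1.29 ± 0.20).

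Lhx1 and Emx2 were the genes whose region effect differed between the genotypes by the test given above. Lhx1 was 2.93-fold higher in posterior than in anterior pieces in the mutant (1.31 ± 0.23, limma adjusted p = 0.0055) and 43.3-fold higher in the wild type (3.61 ± 0.23, limma adjusted p = 1.8e-05). Emx2 was 27.1-fold lower in posterior than in anterior pieces in the mutant (-3.91 ± 0.21, limma adjusted p = 4.5e-06) and 4.88-fold lower in the wild type (-2.06 ± 0.21, limma adjusted p = 0.00028). The region effect of Gata3 was 0.30 ± 0.20 in mutants and 0.90 ± 0.20 in the wild type, and that of Sall1 was 0.37 ± 0.13 and 0.69 ± 0.13. That of Wnt9b was -0.32 ± 0.27 in mutants and -1.38 ± 0.27 in the wild type. For these 3 genes the difference between the genotypes missed the threshold.

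**Figure D3:**
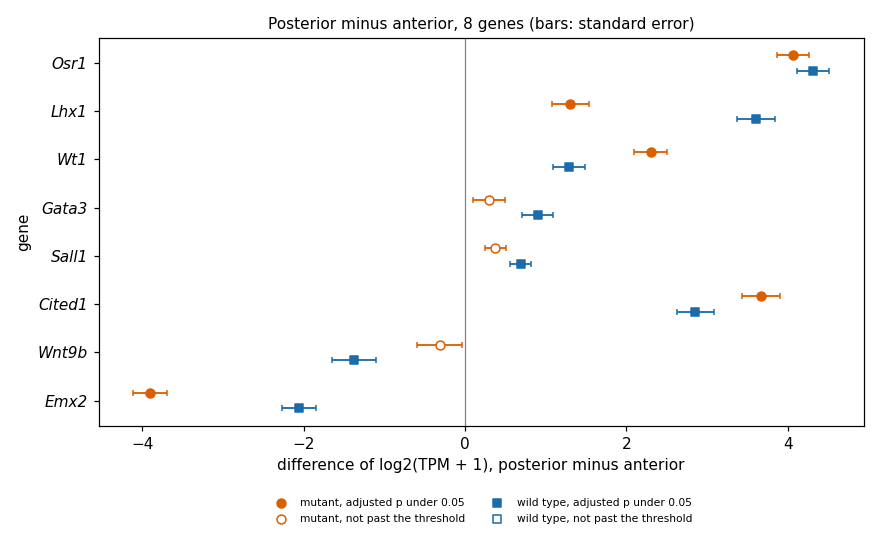
Difference of log2(TPM + 1), posterior minus anterior, for each of the 8 genes in the mutant (orange circles) and the wild type (blue squares), with bars of 1 standard error and filled symbols where the adjusted p was under 0.05. The symbols of Osr1 lie close together at 4.07 and 4.31, and those of Lhx1 (1.31 and 3.61) and Emx2 (-3.91 and -2.06) lie far apart.

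By level per length, the genes ranged widely within the posterior pieces. In the mutant the order by mean TPM ran from Cited1 (165) and Sall1 (113) through Osr1 (48.0), Gata3 (11.2), Lhx1 (10.4), Wt1 (5.26) and Wnt9b (3.84) to Emx2 (1.15). In the wild type it ran from Cited1 (184) and Sall1 (160.4) through Osr1 (49.9), Lhx1 (15.7), Gata3 (13.5), Emx2 (5.26) and Wnt9b (2.07) to Wt1 (1.99). Wnt9b and Wt1 overlapped in the wild type, and Lhx1 and Gata3 overlapped in the mutant. Emx2 stood below Wt1 in both mutant libraries and above it in both wild-type libraries.

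Across the 8 libraries Osr1, Lhx1, Wt1, Cited1 and Emx2 split by region, whereas Gata3, Sall1 and Wnt9b overlapped between anterior and posterior pieces. As a description over points that share the contrast of posterior and anterior pieces, log2(TPM + 1) of Osr1 and Cited1 had a Pearson r of 0.959, that of Emx2 and Wt1 -0.975, and that of Wnt9b and Lhx1 -0.872. On the same measure over 8 libraries, the genes most like Osr1 were Hoxb7 and Tg (0.997 and 0.996), and those most like Cited1 were Krt5 and Kcnk16 (0.996 and 0.995). Those most like Wt1 were Nell1 and Mir6991 (0.996 and 0.993), those most like Sall1 were Tmem100 and Bend4 (0.99 and 0.978), and those most like Gata3 were Dio3os and Cdh3 (0.979 and 0.973). Those most like Emx2 were Mcoln3 and Brinp2 (0.985 and 0.983), and those most like Wnt9b were Ctla2a and Snord72 (0.945 and 0.93). Mir6991 was at 0 TPM in the anterior libraries. In the posterior pieces it had 5.70 and 8.18 TPM in the mutant, against 1.92 and 1.02 TPM in the wild type. Mir6991 and Snord72 are small-RNA genes, and how few reads lay behind their values was not examined.

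The genes most like Lhx1 were Dll3 and Slc12a5 (0.989 and 0.986 over 8 libraries). Dll3, a Notch ligand of the presomitic mesoderm and of newborn neurons, had 10.6 and 16.4 TPM in mutant anterior libraries, against 2.73 and 3.44 TPM in the wild type. In the posterior pieces Dll3 had 32.5 and 26.6 TPM in the mutant, against 35.3 and 33.2 TPM in the wild type.

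Other genes of the intermediate mesoderm and nephric duct gave a wider frame, in a list of 16 of which 15 were tested. In the anterior pieces 5 rose and 4 fell, and in the posterior pieces 0 rose and 4 fell (limma, with 0 higher and 4 lower also at an unadjusted p under 0.05). The median difference was -0.14 in the anterior and -0.22 in the posterior pieces, beside 0.02 and 0.05 over all genes. Pax2, Pax8, Ret and Cdh6 were the 4 that fell in the anterior pieces and also the 4 in the posterior pieces. Their calls stand beside 10.2% and 2.93% of all genes called lower. The 5 anterior and 0 posterior rises stand beside 13.3% and 8.56% of all genes called higher.

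Pax2 and Pax8 encode paired-box factors that together specify the nephric lineage, and both also act in the ear and at the boundary of midbrain and hindbrain. In the posterior pieces Pax2 had 0.652 and 0.762 TPM in the mutant, against 6.93 and 4.69 TPM in the wild type (-1.98 ± 0.18, limma adjusted p = 0.00053). Pax8 had 0.461 and 0.340 TPM in the mutant posterior libraries, against 5.90 and 4.40 TPM in the wild type (-2.13 ± 0.18, limma adjusted p = 0.00042). Both mutant libraries were below both wild-type libraries, and the mean was 8.22-fold lower in the mutant for Pax2 and 12.9-fold lower for Pax8.

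In the anterior pieces Pax2 had 3.72 and 3.87 TPM in the mutant, against 15.4 and 17.0 TPM in the wild type (-1.84 ± 0.18, limma adjusted p = 0.00035). Pax8 had 0.564 and 0.684 TPM in the mutant anterior libraries, against 11.8 and 10.3 TPM in the wild type (-2.89 ± 0.18, limma adjusted p = 5.1e-05). En2 and En1, which also mark the boundary of midbrain and hindbrain, were lower in the same pieces. En2, a homeodomain factor, had 0.938 and 1.39 TPM in the mutant anterior libraries, against 51.1 and 68.9 TPM in the wild type (-4.81 ± 0.21, limma adjusted p = 1.3e-05). Its relative En1 had 8.97 and 7.86 TPM in the mutant anterior libraries, against 55.1 and 63.3 TPM in the wild type (-2.68 ± 0.22, limma adjusted p = 0.00017). The part of such tissue in the anterior falls of Pax2 and Pax8 was not tested.

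Ret, the receptor that guides the growing duct and is also used by neural crest, had 5.79 and 5.31 TPM in the mutant posterior libraries, against 26.8 and 25.0 TPM in the wild type (-2.04 ± 0.18, limma adjusted p = 0.00053). The posterior calls of Pax2, Pax8 and Ret passed in 19 of 19 alternatives.

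Cdh6, a cadherin of early kidney epithelium and neural crest, had 16.2 and 14.4 TPM in the mutant posterior libraries, against 21.7 and 24.2 TPM in the wild type (-0.55 ± 0.13, limma adjusted p = 0.033). That call passed in 12 of 19 alternatives.

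Otic and pharyngeal placode markers were read because Pax2, Pax8 and Gata3 also mark the ear. Of 10 tested in a list of 12, 1 rose (Eya2) and 6 fell in the mutant posterior pieces, where 8.56% of all genes rose and 2.93% fell. The list summed to 119 and 107 TPM in the mutant, against 145 and 159.6 TPM in the wild type. Sox10, a factor of the otic vesicle and of neural crest, had 2.62 and 2.36 TPM in the mutant, against 20.5 and 24.7 TPM in the wild type (-2.75 ± 0.13, limma adjusted p = 1.9e-05). Oc90 was at 0 in both mutant libraries and in wild-type library 153. The part of such tissue in the falls of Pax2 and Pax8 was not tested.

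The duct genes that rose in the anterior pieces included Aldh1a3, Gfra1, Wnt11 and Sim1. Aldh1a3, a retinoic acid enzyme also of the eye and nose, had 118 and 145 TPM in the mutant, against 39.0 and 46.9 TPM in the wild type (1.59 ± 0.15, limma adjusted p = 0.00035). It was the 1 gene of this list whose effect differed between the regions, by 1.93 ± 0.22 (limma adjusted p = 0.0073). In the posterior pieces Aldh1a3 had 0.360 and 0.347 TPM in the mutant, against 0.844 and 0.601 TPM in the wild type (-0.34 ± 0.15, limma adjusted p = 0.18).

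**Figure D4:**
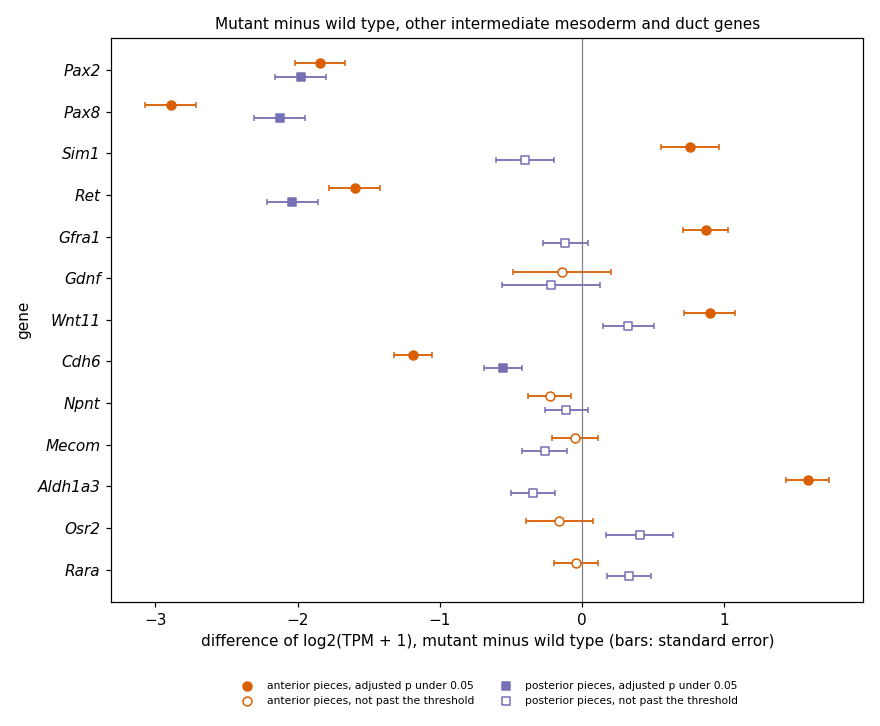
Difference of log2(TPM + 1), mutant minus wild type, for 13 tested genes of the list of other intermediate mesoderm and nephric duct genes, in anterior pieces (orange circles) and posterior pieces (purple squares), with bars of 1 standard error and filled symbols where the adjusted p was under 0.05. Pax2, Pax8, Ret and Cdh6 lie left of 0 with filled symbols in both regions, and Gdnf, Npnt, Mecom, Osr2 and Rara have open symbols in both.

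Genes of the metanephric mesenchyme and nephron progenitors formed a list of 28, of which 27 were tested. In the anterior pieces 4 rose and 4 fell, where 13.3% of all genes rose and 10.2% fell. In the posterior pieces 5 rose and 6 fell, where 8.56% of all genes rose and 2.93% fell. The posterior rises included Hoxa11, Hoxc11 and Hoxd11, homeobox genes that later act together in the kidney mesenchyme and that also mark posterior axial level. Hoxa11 had 18.1 and 21 TPM in the mutant, against 2.76 and 4.38 TPM in the wild type (2.19 ± 0.20, limma adjusted p = 0.00062). Hoxc11 had 10.9 and 14.1 TPM in the mutant, against 1.33 and 1.23 TPM in the wild type (2.56 ± 0.19, limma adjusted p = 0.0002). Hoxd11 had 8.45 and 7.09 TPM in the mutant, against 0.702 and 1.44 TPM in the wild type (2.10 ± 0.22, limma adjusted p = 0.001), and it would not have passed the filter on low values without the mutant libraries.

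Bmp4, a secreted signal of the same list and also of the lateral plate, rose in both regions. It had 119 TPM in each mutant posterior library, against 59.3 and 63.6 TPM in the wild type (0.94 ± 0.10, limma adjusted p = 0.0012). In the anterior pieces Bmp4 had 52.2 and 52.4 TPM in the mutant, against 20.8 and 24.5 TPM in the wild type (1.18 ± 0.10, limma adjusted p = 0.00024). Fgf8, a growth factor of the nephron-forming mesenchyme and of several embryonic signalling centres, fell in the anterior pieces, with 20.6 and 31.0 TPM in the mutant, against 55.4 and 64.6 TPM in the wild type (-1.21 ± 0.18, limma adjusted p = 0.0023). In the posterior pieces Fgf8 had 58.5 and 61.0 TPM in the mutant, against 47.5 and 55.0 TPM in the wild type (0.22 ± 0.18, limma adjusted p = 0.46).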

How the data were processed

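The data deposited by the authors are a single table of TPM values, with 55421 Ensembl identifiers as rows and the 8 libraries as columns. The submitters' processing notes name CASAVA 1.8.2, STAR without a version, and the mm10 build. For annotation and read counting, the tool was not given in the sources used here. Poly-A libraries came from an unstranded TruSeq kit, per the labels' protocols. Since TPM is a share of the total, more of 1 gene class in a library lowers its other values.

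Names, coordinates and exon-union lengths were taken from GENCODE release M21, which named 55240 identifiers. TPM times length, divided by 1 step per library, gave whole reads (within 0.01) for 98.8% to 98.9% of values above 0. These reads describe precision and entered no test.

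The filter asked for 1 TPM or more in 2 or more libraries. log2(TPM + 1) was fitted in limma 3.58.1 (R 4.3.3) with 4 group means and a mean-dependent prior spread (4 residual and 4.68 prior degrees of freedom). Contrasts were mutant minus wild type per region, the anterior minus the posterior of these, and posterior minus anterior per genotype. P-values are two-sided, and Benjamini-Hochberg adjustment was made within each contrast. The fit was tested on simulated data. Alternatives were other pseudocounts (0.1 and 0.5), filters, scalings, array weights, no trend, fewer libraries and a replicate block.

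The 8 genes and the lists were chosen with earlier results of these data known, and lists were counted without a set test. Of each list, up to 4 genes with the smallest p in a genotype effect and up to 2 in the other contrasts could be named, with Pax2 and Pax8 always, and for each of the 8 genes the 2 most like it. Genes named as all those of a small count, or as markers at 0, are outside that rule. Promoter windows are RefSeq's on GRCm38.p6, found for 6 of the 8 genes. Some genes of the lists are not reported here.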

Additional observations from a re-analysis of the deposited data

Results flagged for a closer look

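The genotype effect on Lhx1 differed between the regions by a test of the difference itself: the anterior effect minus the posterior effect was 2.30 on the log2(TPM + 1) scale (limma adjusted p = 0.02). The mutant libraries of Lhx1 were above the wild-type libraries in the anterior pieces (2 of 2) and below them in the posterior pieces (2 of 2). The genotype effect on Emx2 differed between the regions by the same test, by 1.85 (limma adjusted p = 0.028). Neither of these differences passed with the library number as a replicate block. The mutant libraries of Emx2 overlapped the wild type in the anterior pieces and were below it in the posterior pieces (2 of 2).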

How the results depend on the processing

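Of the 8 genes, 2 were called for the anterior genotype effect, 3 for the posterior one, 2 for their difference, 5 for the mutant region effect and 8 for the wild-type one. Leaving out 1 library gave 1 to 2, 1 to 3, 0 to 2, 5 to 6 and 5 to 8, with a group left with 1 library assumed to vary like the others. The share of all genes called moved with the library left out too. Without a filter, the anterior count was 1 and that for the difference 0 (limma, 4 at an unadjusted p under 0.05). The share of all genes called was then 8.4% and 0.165%, against 23.6% and 1.01% in the main fit. Without both libraries numbered 153, fewer of the 8 genes passed in both genotype effects, their difference and the wild-type region effect. The share of all genes that passed fell in each of these contrasts too. The count for the difference was 1 with array weights and 1 without both libraries numbered 159.

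The library number as a replicate block left 0 genes for the difference (limma, 6 at an unadjusted p under 0.05, adjusted p = 0.058 for Lhx1 and 0.064 for Emx2) and 5 and 8 for the region effects. Deviations of same-numbered libraries correlated across genes at 0.136 for mutant and 0.0216 for wild-type libraries, which cannot decide whether they share an embryo. In the mutant, Xist followed the library number in both regions. The labels do not say what the numbers stand for, so the main fit did not take the libraries as paired.

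Among the 8 genes, 10 values changed sign, none past the threshold before or after. Wt1 anterior was -0.0033 under quantile normalization. Leaving out 1 library took Osr1 anterior from -0.102 (without wild-type anterior 156) to 0.459, Osr1 posterior from -0.238 to 0.109 (without mutant posterior 163) and the Osr1 difference from -0.0376 (without wild-type anterior 156) to 0.524. It took Emx2 anterior from -0.013 (without wild-type anterior 153) to 0.623, Cited1 posterior from -0.516 to 0.139 (without mutant posterior 159), and the Gata3 region effect in the mutant from -0.0057 (without mutant anterior 159) to 0.596. Without both libraries numbered 153 Emx2 anterior was -0.013. Without both numbered 159 Cited1 posterior was 0.139 and the Wnt9b region effect in the mutant 0.0184. The cause was not tested. Depth limits Lhx1 in wild-type anterior libraries (13 and 15 reads) and Wt1 in all anterior libraries (11 to 16 reads).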
